A study of Danio rerio with 18 samples.

Results

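The comparison of Lycorine with DMSO in Runx+ cells used 6 of the 18 single-channel microarrays of the series, 3 arrays of Lycorine-treated and 3 of DMSO-treated zebrafish embryos, chosen by the sort and treatment in the sample titles. All embryos were of the AB strain and carried the transgenes Runx1+23:GFP and kdrl:DsRed2. Pools of embryos were kept from 2 to 3 days post fertilization (dpf) in 75 µM Lycorine with 1% DMSO, or in 1% DMSO alone, so that the vehicle was common to both arms. After dissociation with liberase, a cell sorter collected Runx+ cells by the GFP of the enhancer transgene, kdrl+ cells by the DsRed2 of the endothelial transgene, and a negative sort at 3 dpf, each with 3 arrays for each treatment. The RNA was amplified as a whole transcriptome before labelling. The transgenes define the cells: Runx1+23 is an enhancer of mouse Runx1, and a reporter driven by it marks every cell in which the enhancer is active, blood or not. The labels call the arrays biological replicates, but they do not say that each came from a pool of its own, so the p-values may measure only the spread between these samples. In bulk RNA of a sort, fewer cells of a type and less RNA per cell cannot be told apart.

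Lycorine is a plant alkaloid of the Amaryllidaceae that is known to inhibit protein synthesis by binding the eukaryotic ribosome, and it has been reported to dampen inflammatory gene expression in mammalian cells. Hematopoietic stem and progenitor cells (HSPCs) arise in the zebrafish from the ventral wall of the dorsal aorta under control of the factor Runx1. They then move to the caudal hematopoietic tissue, where endothelial and stromal cells form a transient niche. Within the stage treated here, HSPCs lodge and divide in that niche.

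Each value is a log2 intensity, so a difference of 1 stands for a doubling. Array medians of the 6 Runx+ arrays lay between 4.89 and 5.06. The 3 Lycorine arrays correlated with each other over 19247 genes at 0.961 to 0.980, and the 3 DMSO arrays at 0.872 to 0.936. The root mean square SD of genes was 0.54 in the DMSO Runx+ arrays and 0.33 in the Lycorine Runx+ arrays. Among the 6 Runx+ arrays, DMSO Runx+ replicate 1 stood apart from its group. It correlated with the other DMSO Runx+ arrays at 0.872 and 0.900, but with the Lycorine Runx+ arrays at 0.935 to 0.951. Its value lay nearer to the Lycorine mean than to the mean of the other DMSO arrays for 63.0% of genes, against 42.4% and 47.3% when DMSO replicates 2 and 3 were placed the same way. Results are therefore given with and without DMSO Runx+ replicate 1. The other DMSO Runx+ arrays did not correlate best with their own group either. Replicates 2 and 3 reached 0.953 and 0.940 with DMSO negative replicate 2, beside 0.936 with each other. Lycorine Runx+ replicate 3 reached 0.966 with Lycorine negative replicate 2, beside 0.961 with its own group.

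**Figure D1:**
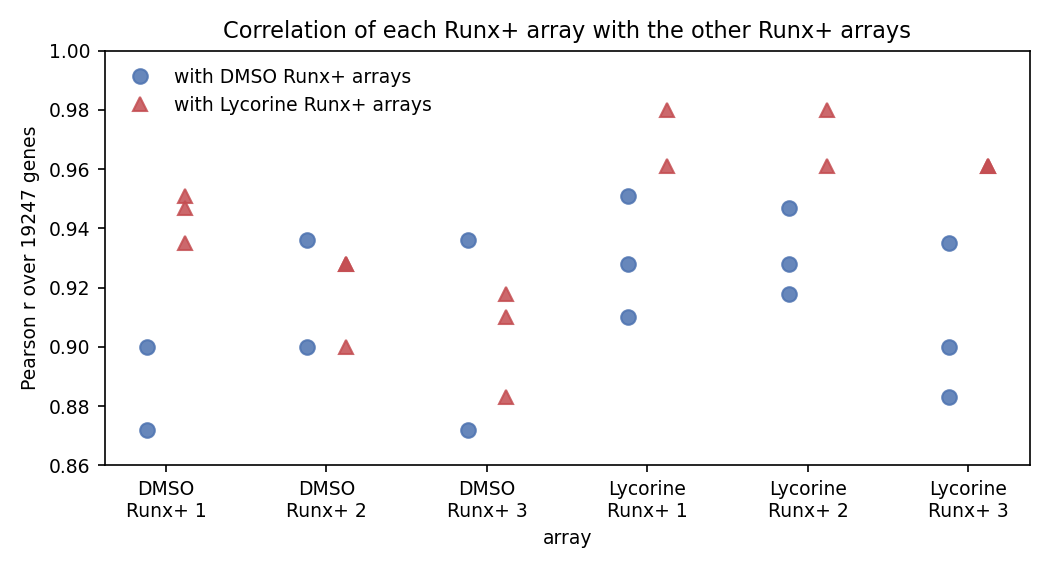
Pearson correlation over genes (y axis, no unit) of each of the 6 Runx+ arrays (x axis) with the other DMSO Runx+ arrays (blue circles) and Lycorine Runx+ arrays (red triangles). DMSO replicate 1 lies at 0.935 to 0.951 with the Lycorine arrays and at 0.872 and 0.900 with the other DMSO arrays, so it lies nearer the Lycorine group than its own. Correlations with the other sorts are not shown.

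The markers of the sort separated into 2 kinds. The integrin itga2b (CD41), a marker of HSPCs and thrombocytes, measured 7.21, 5.93 and 6.90 in the DMSO Runx+ arrays, against 4.44 to 4.54 in the DMSO negative arrays and 5.14 to 5.85 in the DMSO kdrl+ arrays. The class I histocompatibility gene mhc1haa measured 7.44, 7.99 and 7.84 there, against 5.71 to 6.26 in negative and 5.43 to 5.90 in kdrl+ cells. Both stood above the other sorts without overlap.

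The core HSPC factors did not. The transcription factor runx1 measured 5.22, 5.44 and 5.09 in DMSO Runx+ cells, overlapping the negative sort (4.72 to 5.33) and below the kdrl+ sort (5.56 to 6.02). The related HSPC factor gata2b lay at 5.59, 5.25 and 5.39, within reach of the negative sort (5.21 to 5.39) and below kdrl+ cells (6.21 to 7.73). Another factor of definitive HSPCs, myb, lay at 8.30, 6.99 and 8.38, below kdrl+ cells (8.63 to 9.87). For myb, DMSO Runx+ replicates 1 and 3 lay above the negative sort (6.94 to 7.77) and replicate 2 within it. The cells are called Runx+ here for this reason, not HSPCs. Genes of other tissues were bright in the same arrays, among them the keratin krt4 of the epidermis (11.38, 12.15 and 12.13) and the photoreceptor transducin gnat1 (10.17, 9.77 and 8.59), both chosen after their values were seen. Bright values alone do not show that this sort held more of these tissues than the other sorts did. The array values hold no 0, so absence of a marker could not be read from them.

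With Lycorine, the Runx+ arrays gave higher median values for neuronal, protocadherin and cell division genes. They gave lower ones for lysosomal, inflammatory and detoxification genes, and lower values for the class I histocompatibility gene mhc1haa. Medians of pan-leukocyte (-0.69), epidermal (-0.59), skeletal muscle (-0.49) and liver, pancreas and gut genes (-0.60) were lower too. The protocadherin and lysosomal lists were added after the values were seen. Without DMSO Runx+ replicate 3 the neural median went from 0.51 to 0.29, the inflammatory one from -0.65 to -0.31 and the pan-leukocyte one to -0.07. Without DMSO Runx+ replicate 2 the liver, pancreas and gut median was -0.22. Without Lycorine Runx+ replicate 3 the muscle and epidermal medians were -0.25 and -0.30. Without DMSO Runx+ replicate 1 the pan-leukocyte, liver, pancreas and gut, muscle and epidermal medians lay further below 0, at -0.84, -1.02, -0.74 and -1.11. No single gene passed the threshold. Of 19247 genes tested with limma across all 18 arrays, 0 (0%) had an adjusted p under 0.05, and the smallest was 0.0517, for mhc1haa. An unadjusted p under 0.05 was reached by 2600 genes, 1021 higher (5.3%) and 1579 lower (8.2%). The Lycorine and DMSO Runx+ arrays did not overlap for 1283 higher genes (6.67%) and 1660 lower genes (8.62%). At an adjusted p under 0.1 there were 31 genes, 12 higher and 19 lower. The median difference of all genes was -0.04 and the median standard error (SE) was 0.27.

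Without DMSO Runx+ replicate 1, 1107 genes passed the threshold. Of these, 332 rose (1.72%) and 775 fell (4.03%). Of the 1107, 407 had non-overlapping values when the omitted array was put back, where 6.67% of all genes were higher and 8.62% lower without overlap. For 939 of the 1107 that array lay nearer the Lycorine mean than the mean of the other DMSO arrays, beside 63.0% of all genes. Calling genes with the array left out favours such genes, so the 939 rests in part on the choice. Without DMSO Runx+ replicate 3 the count was 1, and without any other single Runx+ array it was 0. A fit that weights arrays by their residuals gave DMSO Runx+ replicate 1 a weight of 0.29 and called 952 genes. Of these, 670 were also called without that array. Both settings reduce the part of the same array, so this overlap is in part given and is no independent support. The other weights varied too, with 0.53 for DMSO Runx+ replicate 3, 0.50 for Lycorine Runx+ replicate 3 and 1.14 to 2.89 for the remaining Runx+ arrays. Whether DMSO Runx+ replicate 1 or its group mates represent DMSO-treated Runx+ cells was not tested.

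Since none passed the threshold, the genes described first are the 12 in each direction with the smallest p among those whose arrays did not overlap, a choice made after their values were seen. The higher ones were in large part genes of neurons and of cilia. The neuronal RNA-binding protein gene elavl4 measured 7.83, 7.21 and 8.47 in the DMSO arrays and 9.44, 9.68 and 9.32 with Lycorine. The difference was 1.65 ± 0.32 (SE, n = 3 arrays per group). Every SE printed here is the moderated SE of the limma fit, with a variance pooled over the arrays of all sorts and treatments. It is not the spread of the Runx+ arrays alone. Where single Runx+ arrays lie far from their group, it can be smaller than those arrays alone would give. A second row of elavl4 gave a difference of 0.95. The zinc finger factor insm2, of the insulinoma-associated family, measured 4.62, 4.59 and 4.70 and then 5.91, 5.51 and 5.87, which is 1.13 ± 0.19 higher. Synaptotagmin syt2a, a calcium sensor of synaptic vesicles, went from 6.80, 6.24 and 6.16 to 7.46, 7.61 and 7.74 (1.2 ± 0.25). By the way the 24 genes were chosen, no values overlap between the groups.

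Synaptic membrane proteins showed the same order. The leucine-rich repeat gene elfn2a, known in mammals as an organiser of synapses, measured 5.21, 5.05 and 5.04 in DMSO and 6.16, 6.18 and 6.20 with Lycorine (1.08 ± 0.20). Its 6 values split into 2 tight groups. The gene lhfpl4a, whose mouse counterpart holds GABA receptors at inhibitory synapses, measured 5.03, 4.85 and 5.05 and then 6.11, 6.31 and 6.20 (1.23 ± 0.24).

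Of the clustered protocadherins, adhesion proteins that give neurons their surface identity, pcdh1g29 measured 6.15, 6.31 and 6.04 in DMSO and 7.96, 7.89 and 7.11 with Lycorine (1.49 ± 0.27). A second row of this gene gave a difference of 1.00. The neighbour pcdh1g2 measured 3.71, 3.63 and 3.30 and then 4.51, 4.50 and 4.97 (1.11 ± 0.22). It is a dim gene, with a mean of 4.39 over the 18 arrays, below the lower quartile of gene means at 4.75. Members of the cluster share sequence, and how much of a row's signal came from a related member was not tested.

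Both cilium genes encode proteins whose loss causes retinal disease in humans. The lebercilin gene lca5 measured 6.15, 5.72 and 5.50 in DMSO and 6.99, 6.96 and 6.82 with Lycorine (1.13 ± 0.23). The transition zone gene cep290 measured 5.69, 6.33 and 5.76 and then 6.98, 7.36 and 7.27 (1.27 ± 0.26). The remaining genes of this direction were slc7a4 of the cationic amino acid transporter family (1.21 ± 0.24, with 0.55 in its second row), the histone chaperone gene hirip3 (1.29 ± 0.27) and the histone demethylase gene kdm2ab (1.19 ± 0.26). Adjusted p of the 12 genes ran from 0.0744 to 0.122 over all 6 arrays. Without DMSO Runx+ replicate 1 all 12 passed, with adjusted p from 0.00861 to 0.0283.

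Among the lower genes, the class I histocompatibility gene mhc1haa went from 7.44, 7.99 and 7.84 to 6.28, 6.51 and 5.99, a difference of -1.50 ± 0.23. It was 2.82-fold lower, and its Lycorine values in Runx+ cells overlapped the DMSO negative arrays (5.71 to 6.26). Annexin anxa11a, a calcium-dependent membrane binder, measured 7.73, 7.88 and 8.21 in DMSO and 6.88, 6.82 and 6.13 with Lycorine (-1.33 ± 0.23). The sialomucin gene cd164, whose product sits in endosomes and lysosomes and in human blood progenitors serves adhesion, measured 9.82, 9.63 and 10.02 and then 8.63, 8.80 and 7.97 (-1.36 ± 0.27).

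Metabolic enzymes were also among the 12. The pyruvate dehydrogenase phosphatase gene pdp1 measured 5.99, 6.37 and 6.64 in DMSO and 5.04, 5.12 and 4.82 with Lycorine (-1.34 ± 0.25). The mitochondrial sulfur dioxygenase gene ethe1 measured 7.96, 8.48 and 8.12 and then 7.16, 7.29 and 6.79 (-1.1 ± 0.22). The deoxyribose-phosphate aldolase gene dera measured 6.51, 6.27 and 6.39 and then 5.32, 5.42 and 5.12 (-1.1 ± 0.22).

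Coagulation factor X, f10, measured 7.34, 8.02 and 7.75 in DMSO and 6.60, 6.75 and 6.06 with Lycorine (-1.23 ± 0.24). The transporter family gene slc22a17, known in mammals as a receptor of lipocalin 2, had the largest difference of the 12, from 5.70, 6.32 and 5.68 to 4.53, 4.58 and 3.72 (-1.62 ± 0.33). The other genes of this direction were bri3 (-1.45 ± 0.29), tm7sf3 (-1.38 ± 0.25), the pigment cell gene lrmda (-1.38 ± 0.26) and pih1d2 of the dynein assembly family (-1.05 ± 0.20). Adjusted p of the 12 genes ran from 0.0517 to 0.0949, and without DMSO Runx+ replicate 1 all 12 fell, with adjusted p from 0.00385 to 0.0205. These genes were picked on the same arrays, so this is not independent of the result over all 6.

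**Figure D2:**
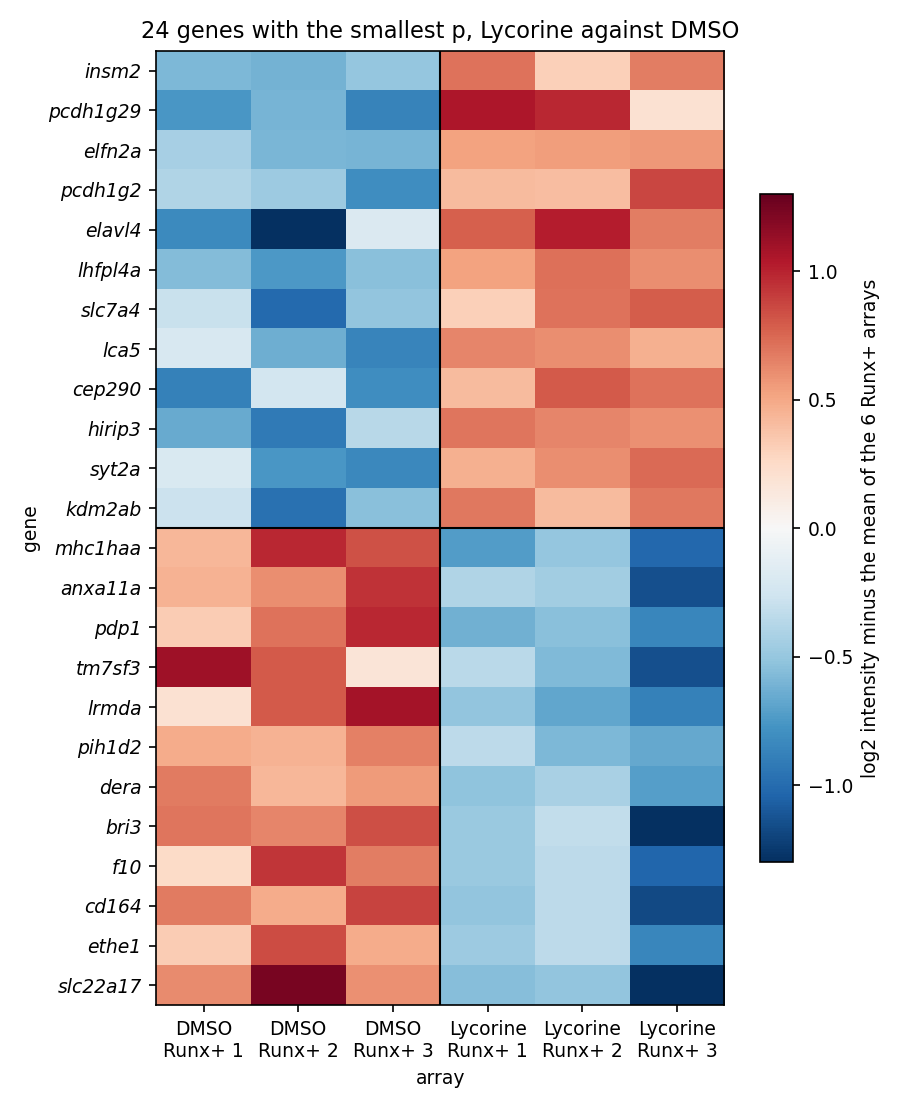
Heat map of the 24 genes (rows) with the smallest p among genes whose arrays do not overlap, on the 6 Runx+ arrays (columns), as log2 intensity minus the gene's mean over the 6 arrays. The upper 12 genes are higher and the lower 12 lower on every Lycorine array. Lycorine replicate 3 is the lowest array for all 12 lower genes, for example bri3 at 6.46 against 7.35 and 7.51.

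Gene lists were read by counts and medians, beside those of all genes. Of 1939 genes in 42 lists, 1660 were measured, and 0 lists had a member past the adjusted threshold over all 6 arrays. The counts below over all 6 arrays are of members at an unadjusted p under 0.05, to be read against 5.3% higher and 8.2% lower of all genes. Counts without DMSO Runx+ replicate 1 are of members past the adjusted threshold. They are to be read against 1.72% higher and 4.03% lower of all genes. The score of an array averages a list's members after the mean of the 18 arrays is subtracted from each.

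Neural genes were higher with Lycorine as a group, with a median difference of 0.51 over 41 measured members. At p under 0.05, 10 were higher (24.4%) and 0 lower. Beside elavl4, the vesicular glutamate transporter gene slc17a6b measured 7.0, 5.54 and 6.30 in DMSO and 7.50, 7.55 and 7.96 with Lycorine (1.39 ± 0.33, adjusted p = 0.147), although its second row differed by 0.37. The splicing regulator celf4 measured 5.74, 5.25 and 5.76 and then 6.75, 7.03 and 6.73 (1.25 ± 0.33), and the proneural factor ascl1b 6.29, 6.12 and 6.11 and then 6.65, 6.59 and 6.77 (0.50 ± 0.19). The neural score was 0.41, -0.18 and -0.44 on the DMSO arrays and 0.42 to 0.54 on the Lycorine arrays, so that DMSO replicate 1 stood at the Lycorine level. Without that array the median was 0.86 and 6 members rose (14.6%). Without DMSO replicate 3 the median was 0.29.

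Clustered protocadherins had the highest median of any list over all 6 arrays, 0.66 over 28 members (0.63 without DMSO replicate 1, below the neural list), with 13 higher (46.4%) and 0 lower. The list was added after the values were seen. Its score was -0.39, -0.36 and -0.30 on the DMSO arrays and 0.28, 0.46 and 0.11 with Lycorine, and here DMSO replicate 1 lay with its group. Besides the 2 members above, pcdh1gc5 measured 4.75, 4.19 and 5.34 in DMSO and 6.81, 7.06 and 5.90 with Lycorine (1.83 ± 0.47), and pcdh1g18 3.46, 4.01 and 3.50 and then 4.69, 4.94 and 4.64 (1.1 ± 0.28). The median stayed between 0.58 and 0.73 when any 1 Runx+ array was left out. Median differences of the list in the other sorts were 0.16 in negative and 0.44 in kdrl+ cells.

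Genes of the cilium and basal body, also a list added after the values were seen, had a median of 0.30 over 60 members, with 8 higher (13.3%) and 1 lower. The dynein assembly family gene pih1d2, 1 of the 12 lower genes above (-1.05 ± 0.20), was not in this list. The spindle and ciliary gene cspp1b measured 5.51, 4.97 and 5.12 in DMSO and 5.89, 6.21 and 6.39 with Lycorine (0.96 ± 0.23). The intraflagellar transport gene ift81 measured 4.91, 4.43 and 4.69 and then 5.44, 5.67 and 5.69 (0.92 ± 0.25). This median rested on DMSO replicate 3, without which it was 0.04. It was 0.49 without DMSO replicate 1, with 9 members then higher past the threshold (15.0%).

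Cell division genes were also higher. Of 51 measured mitosis genes 46 had a positive difference, with a median of 0.35, and 12 were higher (23.5%) and 0 lower at p under 0.05. The spindle pole gene aspm measured 5.31, 5.72 and 6.47 in DMSO and 7.20, 6.61 and 6.59 with Lycorine (0.97 ± 0.28, adjusted p = 0.179). Topoisomerase top2a, which untangles chromosomes, measured 7.50, 7.20 and 7.56 and then 8.40, 8.14 and 8.14 (0.81 ± 0.26, adjusted p = 0.201). The kinetochore genes cenph and nuf2 differed by 0.84 ± 0.25 and 0.81 ± 0.31, again without overlap.

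Among 54 DNA replication genes the median was 0.28, with 7 higher (13%) and 0 lower. The polymerase subunit gene pole2 measured 5.68, 5.67 and 5.35 in DMSO and 6.37, 6.64 and 6.50 with Lycorine (0.94 ± 0.27), although its second row differed by 0.16. The polymerase subunit gene pold3 differed by 0.76 ± 0.26, the chromatin remodeller hells by 0.79 ± 0.29 and thymidine kinase tk1 by 0.57 ± 0.21. Leaving out DMSO Runx+ replicate 1 raised both medians, to 0.48 and 0.37, but no member of either list passed the threshold then. Leaving out any 1 Runx+ array gave 0.26 to 0.51 for mitosis and 0.17 to 0.40 for replication. In the negative and kdrl+ sorts the mitosis median was 0.11 and 0.30.

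Lysosomal genes, the third list added after the values were seen, were lower. Of 75 measured, 65 had a negative difference, the median was -0.43, and 33 were lower (44%) against 1 higher. The tetraspanin gene cd63, a membrane protein of lysosomes, measured 9.57, 9.95 and 10.39 in DMSO and 9.12, 9.05 and 8.06 with Lycorine (-1.23 ± 0.28, adjusted p = 0.129). The phospholipase gene pla2g15 measured 7.29, 7.87 and 7.96 and then 6.45, 6.61 and 5.80 (-1.42 ± 0.30, adjusted p = 0.0964). The cation pump gene atp13a2 measured 5.63, 5.59 and 5.83 and then 5.0, 4.98 and 4.36 (-0.91 ± 0.19, adjusted p = 0.122).

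The lysosome score was 0.02, 0.12 and 0.24 on the DMSO arrays and -0.26, -0.28 and -0.51 with Lycorine, without overlap and with DMSO replicate 1 among its group. Without any 1 Runx+ array the median stayed between -0.49 and -0.38, and without DMSO Runx+ replicate 1 14 members fell (18.7%). The list of the vacuolar ATPase, the proton pump that acidifies the same organelle, was also added after the values were seen. It had no stable direction. Its 20 measured subunit genes had a median of -0.02, which was 0.33 without DMSO Runx+ replicate 1 and -0.23 without DMSO replicate 3, and 1 was lower, the membrane subunit atp6v0e1, at 8.44, 7.83 and 7.76 in DMSO and 7.11, 6.60 and 6.79 with Lycorine (-1.18 ± 0.25, adjusted p = 0.122). Its score on DMSO replicate 1 was 0.81, far above the -0.20 to 0.29 of the other 5 Runx+ arrays.

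Inflammatory genes were lower with Lycorine, with a median of -0.65 over 48 members and 12 lower (25%) against 0 higher. The matrix protease gene mmp9, made by activated leukocytes and tissue, measured 6.34, 7.77 and 9.41 in DMSO and 5.58, 6.62 and 5.43 with Lycorine (-1.96 ± 0.55, adjusted p = 0.179). The groups overlapped, and DMSO replicate 3 was the highest of the 6. The granulocyte growth factor gene csf3b measured 6.64, 6.64 and 8.11 and then 5.83, 5.80 and 5.38 (-1.46 ± 0.40, adjusted p = 0.179). The neutrophil attractant cxcl8a measured 7.67, 8.37 and 8.84 and then 7.36, 7.43 and 6.80 (-1.1 ± 0.43), and the macrophage growth factor il34 5.53, 5.41 and 7.74 and then 5.0, 4.44 and 5.17 (-1.36 ± 0.51). For the cytokine il1b, 1 array carried the difference, with 6.84, 6.77 and 9.86 in DMSO and 7.21, 6.13 and 5.61 with Lycorine (-1.51 ± 0.78).

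Leukocyte markers moved with these genes. All 15 pan-leukocyte markers had a negative difference (median -0.69), with 5 lower (33.3%), and of 27 myeloid markers 24 were negative (median -0.55), with 5 lower (18.5%). The neutrophil peroxidase mpx measured 6.81, 6.69 and 9.88 in DMSO and 6.08, 6.72 and 6.04 with Lycorine (-1.51 ± 0.57). The pan-leukocyte score was -0.70, -0.76 and 0.74 on the DMSO arrays and -0.97 to -0.70 with Lycorine, the myeloid score -0.43, -0.59 and 0.76 against -0.82 to -0.73, and the inflammation score -0.46, 0.16 and 0.98 against -0.65 to -0.37. DMSO replicate 3 was thus the highest array for all 3 lists. Without it the medians were -0.07 for pan-leukocyte, -0.23 for myeloid and -0.31 for inflammatory genes. Without DMSO replicate 1 they were -0.84, -0.69 and -1.0. Then 1 (6.67%), 2 (7.41%) and 7 (14.6%) members fell past the threshold, beside 4.03% of all genes. The part of leukocyte content in the inflammatory result was not tested.

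Of 28 genes of matrix metalloproteases and inhibitors 6 were lower (21.4%; median -0.27) and 0 higher. Interferon-stimulated genes had a median of -0.23 over 36 members, 8 lower (22.2%), among them mhc1haa and the ubiquitin-like isg15, which measured 5.29, 5.18 and 6.09 in DMSO and 4.17, 4.13 and 4.79 with Lycorine (-1.16 ± 0.37). Past the threshold without DMSO Runx+ replicate 1 were 2 lower members of this list (5.56%), beside 4.03% of all genes. Lymphoid markers did not shift together (median -0.04 over 18, 1 higher and 1 lower). The one higher was the T cell and neural factor bcl11ba, at 6.32, 6.45 and 6.12 and then 7.0, 7.35 and 7.52 (0.99 ± 0.27).

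The HSPC, erythroid and thrombocyte lists had medians below 0 over all 6 arrays. Of 26 HSPC markers 2 were lower (7.69%) and 0 higher, with a median of -0.19 that turned to 0.02 without DMSO Runx+ replicate 3. Those 2 were itga2b, at 7.21, 5.93 and 6.90 in DMSO and 4.91, 6.71 and 5.25 with Lycorine (-1.06 ± 0.39, adjusted p = 0.249), and the leukocyte actin regulator coro1a, at 6.84, 5.97 and 8.29 and then 5.82, 5.86 and 5.66 (-1.25 ± 0.40). The itga2b groups overlapped through Lycorine replicate 2. Values of runx1 were 5.22, 5.44 and 5.09 and then 4.70, 4.98 and 4.72 (-0.45 ± 0.21, adjusted p = 0.37), and a second row of runx1 differed by -0.18. The differences of gata2b and myb were -0.47 ± 0.30 and -0.08 ± 0.37, the latter turning positive in 4 alternatives.

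Erythroid genes all had a negative difference (21 of 21, median -0.40), with 3 lower (14.3%). The embryonic globin hbbe2 measured 9.94, 9.34 and 10.66 in DMSO and 8.45, 8.98 and 8.11 with Lycorine (-1.46 ± 0.37, adjusted p = 0.171), and hbae3 10.81, 10.05 and 11.34 and then 9.86, 10.33 and 9.67 (-0.78 ± 0.32). Here too DMSO replicate 3 was highest, with an erythroid score of 0.40 against -0.83 to -0.46 on the other 5, and the median was -0.09 without it. Thrombocyte markers had a median of -0.47 over 11, with itga2b the 1 lower, and -0.12 without DMSO replicate 3 and -0.18 without Lycorine replicate 1.

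Of 32 niche adhesion and chemokine genes 3 were lower (9.38%; median -0.23), csf3b, cxcl8a and the homing integrin itga4, which measured 6.40, 6.05 and 7.10 in DMSO and 5.91, 5.73 and 5.60 with Lycorine (-0.77 ± 0.28, adjusted p = 0.254). The chemokine receptors cxcr4a and cxcr4b differed by -0.26 ± 0.27 and -0.15 ± 0.38. The endothelial list had a median of -0.03 over 53 genes with 3 lower (5.66%), and kdrl measured 6.82, 7.58 and 6.85 and then 6.75, 6.36 and 6.91.

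Genes of the translation machinery lay close to the median of all genes. None of 68 cytosolic ribosomal protein genes had a p under 0.05 in either direction, with a median of -0.06 and a range from -0.42 to 0.37. Translation factors had a median of -0.04 over 66 (2 higher, 3 lower), and tRNA synthetases -0.01 over 23 (1 lower). Lycorine and DMSO arrays did not overlap for 9 lower and 4 higher ribosomal protein genes, and for 11 lower and 2 higher translation factors. Of all genes, 8.62% were lower and 6.67% higher without overlap. Ribosome biogenesis genes had a median of 0.08 over 96 with 4 in each direction. Its largest value was that of mphosph10, a nucleolar processing factor, at 5.65, 6.10 and 6.72 in DMSO and 7.08, 7.24 and 7.39 with Lycorine (1.08 ± 0.26, adjusted p = 0.154). The nucleolar genes ppan and wdr46 differed by 0.93 ± 0.27 and 1.0 ± 0.30, and the RNA polymerase I subunit polr1a by -0.58 ± 0.22. For nonsense-mediated decay, which depends on translation, 3 of 21 were higher (14.3%) and 1 lower, with a median of 0.12 and upf3a at 0.97 ± 0.30.

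The integrated stress response, ER chaperone and heat shock lists hold programs known to respond to disturbed protein synthesis. Of these, only the first had a median clearly below that of all genes (-0.04). The ER chaperone and heat shock medians changed sign in 3 and 2 of 16 alternatives. The integrated stress response had a median of -0.38 over 36 genes with 7 lower (19.4%) and 1 higher (2.78%). Past the threshold without DMSO Runx+ replicate 1 were 2 lower (5.56%) and 1 higher (2.78%), beside 4.03% and 1.72% of all genes. The transcription factor atf5b measured 5.91, 7.45 and 6.75 in DMSO and 5.67, 5.63 and 5.67 with Lycorine (-1.05 ± 0.29), the stress hormone fgf21 differed by -0.82 ± 0.26, the pseudokinase trib3 by -0.82 ± 0.30, and the lipoprotein receptor vldlr by 0.81 ± 0.29. ER chaperones (median -0.06 over 30, 1 higher, creld2, and 3 lower, among them derl3), heat shock genes (-0.02 over 27, 1 higher) and the proteasome (0.11 over 46, 2 higher, among them psmc3) lay near the median of all genes.

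Detoxification genes were lower. In the xenobiotic and Nrf2 list 40 of 44 had a negative difference (median -0.52) and 16 were lower (36.4%). The quinone reductase nqo1, a target of Nrf2, measured 8.15, 9.08 and 9.61 in DMSO and 7.53, 8.02 and 7.43 with Lycorine (-1.29 ± 0.36, adjusted p = 0.179). The drug-metabolising cyp3a65 measured 5.50, 7.34 and 7.17 and then 5.36, 5.32 and 5.45 (-1.3 ± 0.39), so DMSO replicate 1 lay close to the Lycorine values. The Nrf2 inhibitor keap1b measured 6.83, 6.65 and 6.94 and then 6.19, 6.28 and 5.97 (-0.66 ± 0.20), and the glutathione transferase mgst1.1 differed by -0.89 ± 0.31. Without any 1 Runx+ array the median lay between -0.63 and -0.36, and without DMSO replicate 1 8 members fell (18.2%).

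In other metabolic and regulatory lists the medians were -0.08 for nuclear-encoded oxidative phosphorylation (80 genes, 2 higher, 1 lower), -0.14 for sterol synthesis (32, 1 higher, 5 lower), -0.24 for hypoxia and glycolysis (55, 1 higher, 5 lower) and -0.17 for the circadian clock (42, 1 higher, 5 lower). For immediate early and flow-responsive genes the median was -0.16 (59, 2 higher, 2 lower), for histones 0.08 (8, 1 higher) and for the Notch pathway 0.00 (32, 3 lower). Several of these medians moved with 1 array. Without DMSO replicates 1 and 3 they were -0.42 and 0.08 for immediate early genes, 0.26 and -0.07 for histones, and 0.05 and -0.23 for oxidative phosphorylation. For sterol synthesis the median was -0.04 without DMSO replicate 1, and for the clock -0.02 without Lycorine replicate 3. The complex III subunit uqcrfs1 was among the higher ones, at 6.88, 7.50 and 6.70 and then 8.62, 8.03 and 7.88 (1.15 ± 0.39), with 0.62 and 0.07 in its other rows. Succinate dehydrogenase sdha differed by 0.67 ± 0.24, but its second row gave -0.10. In glycolysis the neuronal enolase eno2 was 0.83 ± 0.26 higher, while aldoab and gpib differed by -1.25 ± 0.48 and -0.94 ± 0.33.

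Markers of tissues other than blood moved too, most of them unevenly over the DMSO arrays. Epidermal genes had a median of -0.59 over 52 with 9 lower (17.3%). The connexin gjb8 measured 7.74, 7.97 and 9.06 in DMSO and 6.16, 6.93 and 6.59 with Lycorine (-1.70 ± 0.38, adjusted p = 0.129), and the desmosomal plakophilin pkp1b 7.12, 8.40 and 8.93 and then 6.92, 7.31 and 6.98 (-1.08 ± 0.35). The epidermal score was -0.01, 1.28 and 1.31 on the DMSO arrays and 0.30, 0.60 and -0.09 with Lycorine, so DMSO replicate 1 fell among the Lycorine arrays. Without it the median was -1.11 and 19 genes fell (36.5%), among them anxa1a and ovol1a. Without DMSO replicate 2 or 3 the median was -0.38.

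Liver, pancreas and gut genes had a median of -0.60 over 57 with 10 lower (17.5%). The trypsin gene prss59.1 measured 5.24, 9.72 and 9.52 in DMSO and 5.20, 4.2 and 4.66 with Lycorine (-3.47 ± 1.37, adjusted p = 0.28), and apolipoprotein apoa1a 7.09, 10.02 and 6.27 and then 5.86, 5.97 and 5.26 (-2.09 ± 0.80). All trypsin values with Lycorine lay below DMSO replicate 1, and DMSO replicates 2 and 3 far above it. Without DMSO replicate 2 the median of the list was -0.22. Without DMSO replicate 1 it was -1.02, with 3 genes falling (5.26%, beside 4.03% of all genes).

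Skeletal muscle genes had a median of -0.49 over 41 with 12 lower (29.3%) and 0 higher. Creatine kinase ckmb measured 8.09, 8.05 and 8.54 in DMSO and 7.54, 7.10 and 6.66 with Lycorine (-1.13 ± 0.34), parvalbumin pvalb2 differed by -1.02 ± 0.32, and the sarcomere genes ldb3b and tpma by -1.70 ± 0.52 and -1.26 ± 0.43. The muscle score was 0.46, 0.84 and 1.15 on the DMSO arrays and 0.83, 0.36 and -0.40 with Lycorine, which overlap, and without Lycorine replicate 3 the median was -0.25. No muscle gene passed the threshold without DMSO replicate 1.

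DMSO replicate 1 differed most in pigment cells. The pteridine synthesis gene gch2 of yellow pigment cells measured 11.59 there against 4.18 to 5.43 on the other 5 Runx+ arrays, and csf1ra, the receptor these cells need, measured 8.82 against 4.64 to 5.69. The neural crest and pigment score was 1.27 on that array and -0.44 to 0.49 on the other 5. The list had a median of 0.02 over 30 genes with 1 lower. Medians were 0.18 for retina and lens (51 genes, 1 higher), with -0.35 without DMSO replicate 3, and -0.18 for mesenchyme and cartilage (51, 1 higher, the mesenchymal factor twist2 at 1.36 ± 0.57).

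**Figure D3:**
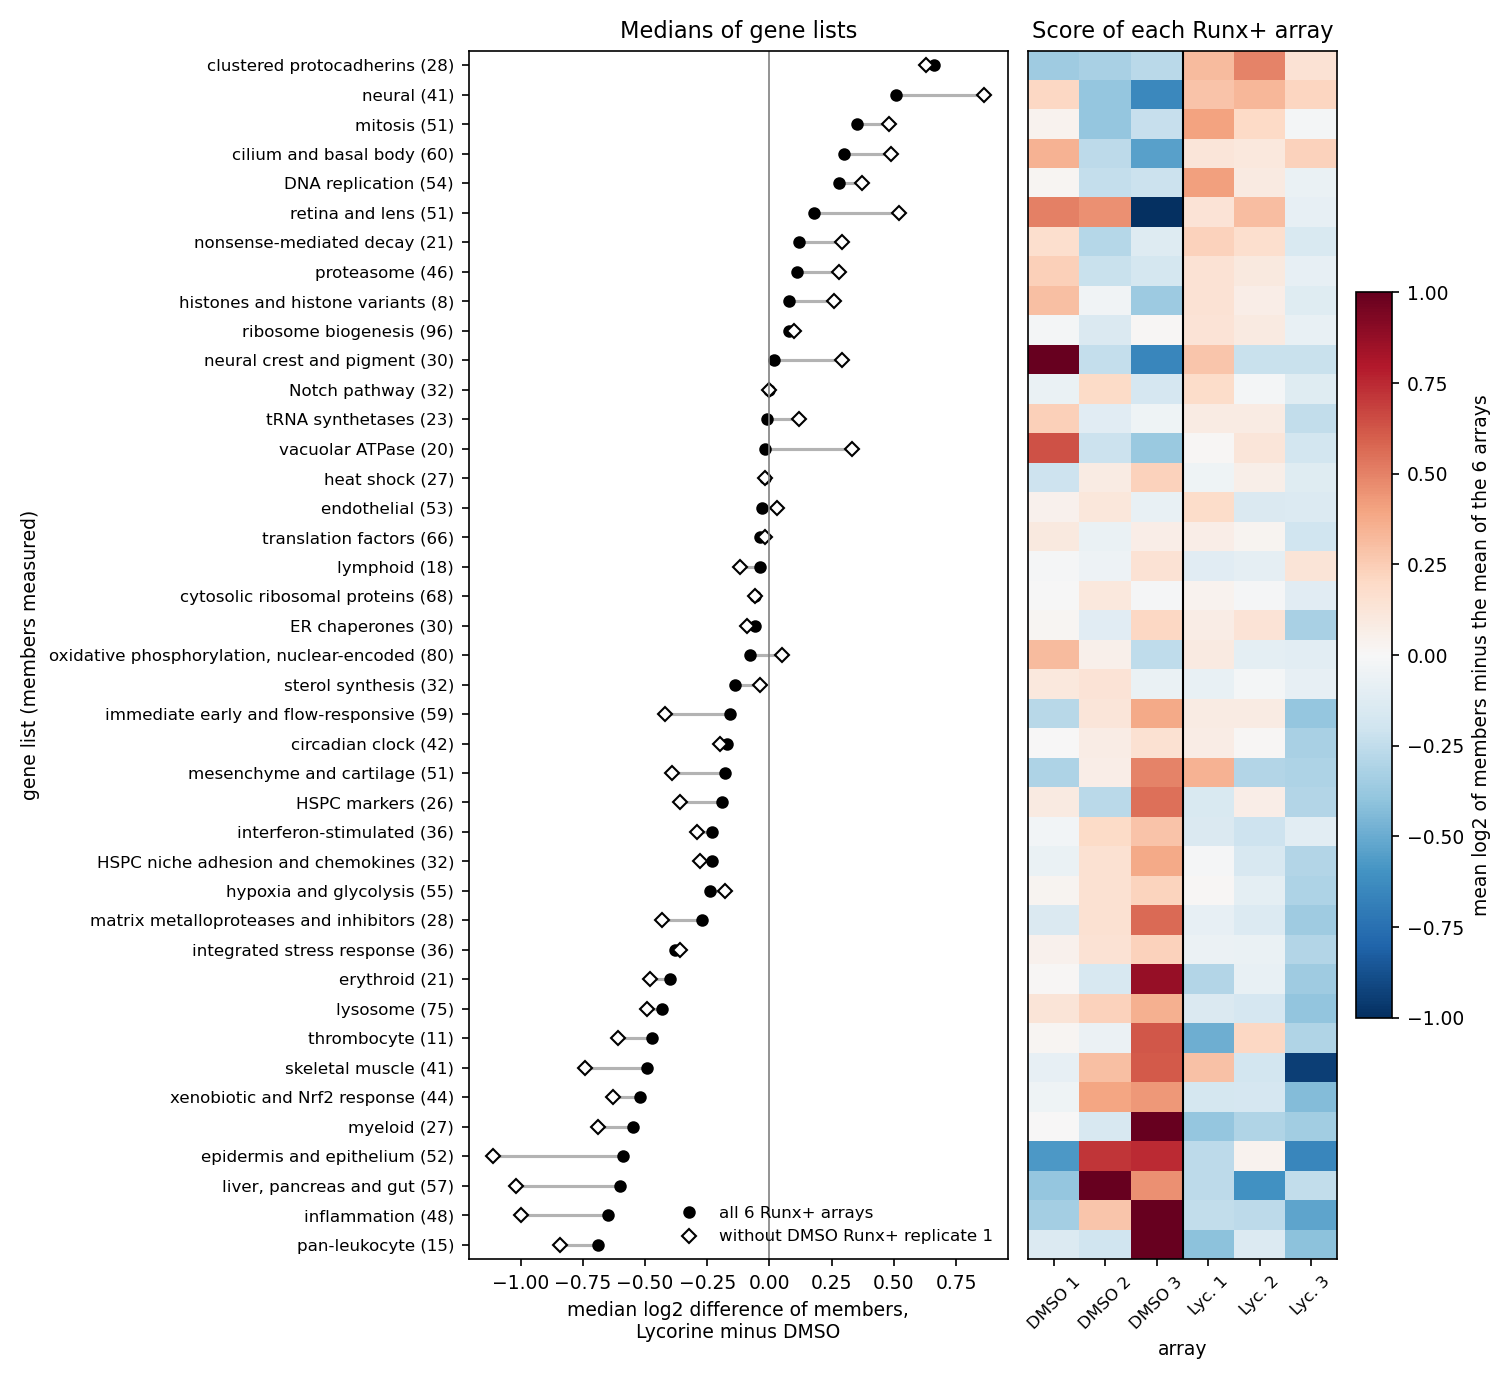
Left, the median log2 difference of the measured members of each gene list shown, Lycorine minus DMSO in Runx+ cells (x axis), over all 6 Runx+ arrays (filled circles) and without DMSO Runx+ replicate 1 (open diamonds); the number measured is in brackets. Right, the score of each array, the mean log2 value of the members minus the mean of the 6 arrays. Protocadherins and lysosomal genes change sign between the treatments on all arrays, while pigment and leukocyte scores follow single DMSO arrays. The epidermis score is high on DMSO replicates 2 and 3 but not on replicate 1.

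The next question was whether Lycorine acted differently in Runx+ cells than in the other sorts. Tested as a difference of effects, 0 of 19247 genes (0%) passed the threshold for Runx+ minus negative and 0 (0%) for Runx+ minus kdrl+. An unadjusted p under 0.05 was reached by 321 and 852 genes, and the smallest adjusted p were 0.9998 and 0.871. The median SE of such a difference was 0.38, so only large contrasts between the sorts could have been seen with 3 arrays per group.

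The smallest p against the kdrl+ sort belonged to sh3tc2, a Schwann cell gene, whose Lycorine difference was -1.17 in Runx+ and 0.88 in kdrl+ cells (-2.05 ± 0.40 between them), and to mhc1haa, with -1.50 in Runx+, 0.12 in kdrl+ and -0.41 in negative cells. The difference for mhc1haa was -1.61 ± 0.32 against kdrl+ (adjusted p = 0.871) and -1.08 ± 0.32 against negative cells. The polymerase gene pole2 differed by 0.94 in Runx+ and -0.77 in kdrl+ cells (1.71 ± 0.38 between them). The lens crystallin crygm2d15 had 1.08 and -1.69, the bHLH factor hes2.1 1.17 and -0.73, the kinase taok3b 0.88 and -0.21, and the chemokine ccl38.1 -0.35 and -1.99. Among those with the smallest p on the lower side, fam167b had -0.65 and 0.93, aifm4 -0.71 and 0.47, and pih1d2 -1.05 and 0.11.

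Against the negative sort, the BMP receptor bmpr1bb had a difference of 0.52 in Runx+ and -1.08 in negative cells (1.59 ± 0.38 between them), though a second row of it gave 0.12 in Runx+ cells. The zinc finger gene zbtb25 had 0.54 and -0.51, the replication kinase subunit dbf4 0.84 and -0.05, pcdh1g2 1.11 and -0.03, and insm2 1.13 and 0.19. On the lower side the paraoxonase pon1 had -1.07 and 0.15, raver2 -0.47 and 0.67, the kinase pimr141 -1.05 and 0.31, and pih1d2 -1.05 and -0.08. All these differences were past an unadjusted p of 0.05 by the way they were chosen, and none was past the adjusted threshold.

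Over genes, the Lycorine differences in Runx+ cells correlated with those in negative cells at 0.61 and with those in kdrl+ cells at 0.45, where the sorts may share embryo pools. Without the 3 DMSO arrays numbered 2, which had high values for pancreas and gut genes, these were 0.38 and 0.42. Side by side, elavl4 was higher by 1.65, 0.96 and 1.52 in Runx+, negative and kdrl+ cells, f10 lower by -1.23, -1.36 and -1.43, and csf3b lower by -1.46, -1.16 and -2.34. Medians of lysosomal genes were -0.43, -0.19 and -0.08 in the same order, those of inflammatory genes -0.65, -0.57 and -0.23, and those of neural genes 0.51, 0.24 and 0.45.

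**Figure D4:**
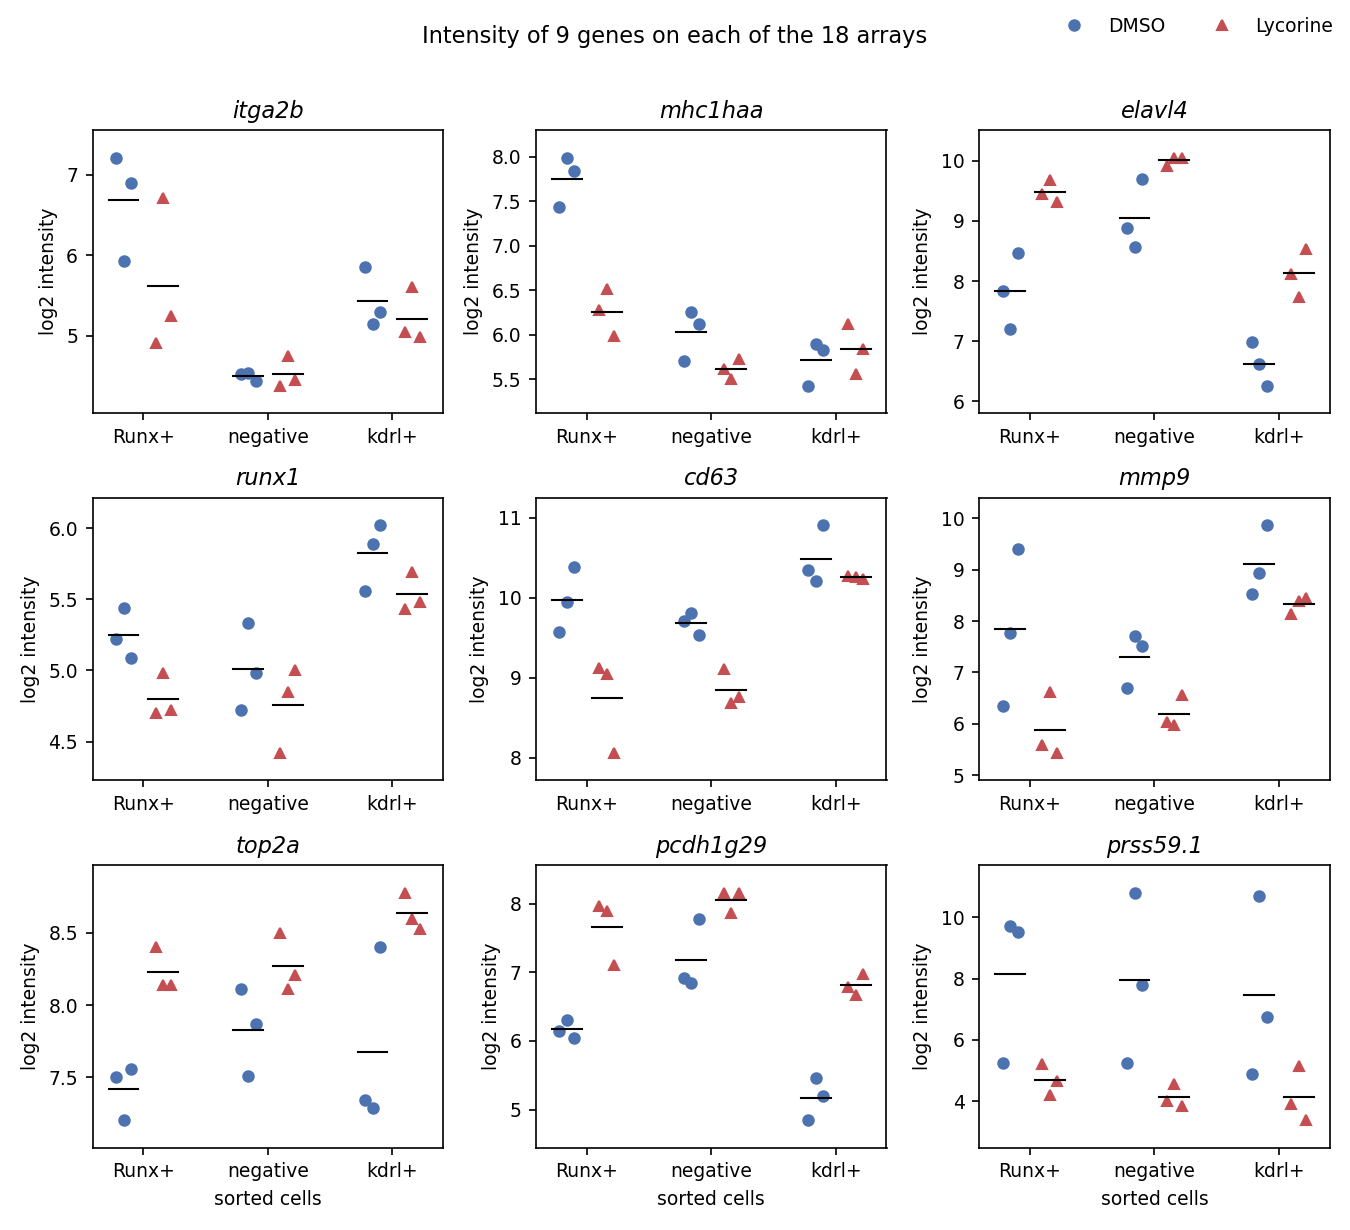
Log2 intensity (y axis) of 9 genes on each of the 18 arrays by sort (x axis), with DMSO in blue circles, Lycorine in red triangles and group means as black bars; the y axes differ between genes and do not start at 0. In Runx+ cells mhc1haa drops from 7.44 to 7.99 in DMSO to 5.99 to 6.51 with Lycorine and is near 6 in the other sorts, while pcdh1g29 is higher with Lycorine in all 3 sorts and prss59.1 is high on some DMSO arrays.

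The table also holds rows that carry no gene symbol or several, which stood outside the gene test. With all 65528 rows tested and adjusted together, a choice made after seeing the data, 197 rows passed the threshold. Of the 44722 rows with several or no symbol 172 were called (0.385%), 154 higher and 18 lower, and of the 20806 rows with 1 symbol 25 (0.12%), 11 higher and 14 lower. Here the adjusted p of mhc1haa was 0.0205, of insm2 0.0209, of anxa11a 0.0231, of elfn2a 0.0331 and of pcdh1g29 0.0333, and elavl4, f10, lca5, cd164 and bri3 were among the 25. These adjusted p-values are not comparable with those of the gene test, since the family of tests differs. The count moved with single arrays in both directions. It was 1749, 5 and 163 without DMSO Runx+ replicates 1, 2 and 3, and 15, 3 and 2 without Lycorine Runx+ replicates 1, 2 and 3.

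The row with the smallest p, 12981306, measured 3.71, 3.44 and 4.07 in the DMSO Runx+ arrays and 6.63, 7.30 and 7.17 with Lycorine, a difference of 3.29 ± 0.30 (adjusted p = 0.000398). Its difference was 2.97 in negative and 2.57 in kdrl+ cells. Row 13200470 measured 3.05, 3.33 and 3.37 and then 4.94, 4.89 and 4.81 (1.63 ± 0.17, adjusted p = 0.00226). It is dim, with a mean of 4.17 over the 18 arrays, where the lower quartile of gene means was 4.75. Of the lower rows, 13186646 measured 8.05, 7.96 and 8.12 and then 5.90, 6.23 and 6.54 (-1.82 ± 0.28), and 12924329 measured 8.95, 9.24 and 9.33 and then 7.69, 7.53 and 7.20 (-1.70 ± 0.27). In these 4 rows DMSO replicate 1 lay with its own group.

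The same rows were set beside their differences in the other sorts. These sorts cannot be taken as independent of the Runx+ arrays. Deviations of same-numbered DMSO arrays correlated at 0.42, 0.33 and 0.36 between Runx+ and kdrl+ cells. Between Runx+ and negative cells they correlated at 0.26, 0.37 and -0.09. Same-numbered Lycorine arrays did not show this throughout, with 0.02, -0.01 and -0.23 for kdrl+ and 0.33, -0.15 and -0.36 for negative cells. Differently numbered arrays reached 0.41, for Lycorine Runx+ replicate 3 and Lycorine negative replicate 2. Of the 154 rows that rose, 149 were higher in negative and 148 in kdrl+ cells, and 133 and 136 were higher at an unadjusted p under 0.05, where 5.95% and 9.96% of all rows without a single symbol were. Of the 18 that fell, 18 and 14 were lower in negative and kdrl+ cells, with 11 and 7 at p under 0.05 beside backgrounds of 5.81% and 5.14%. A row's differences in all sorts share the same variance estimate, so rows picked by p in Runx+ cells reach a small p elsewhere more easily. The backgrounds over all rows are not matched for this. The 172 rows held 163 distinct profiles, so a few rows repeat 1 measurement. What these rows target is not given in the annotation used here.

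**Figure D5:**
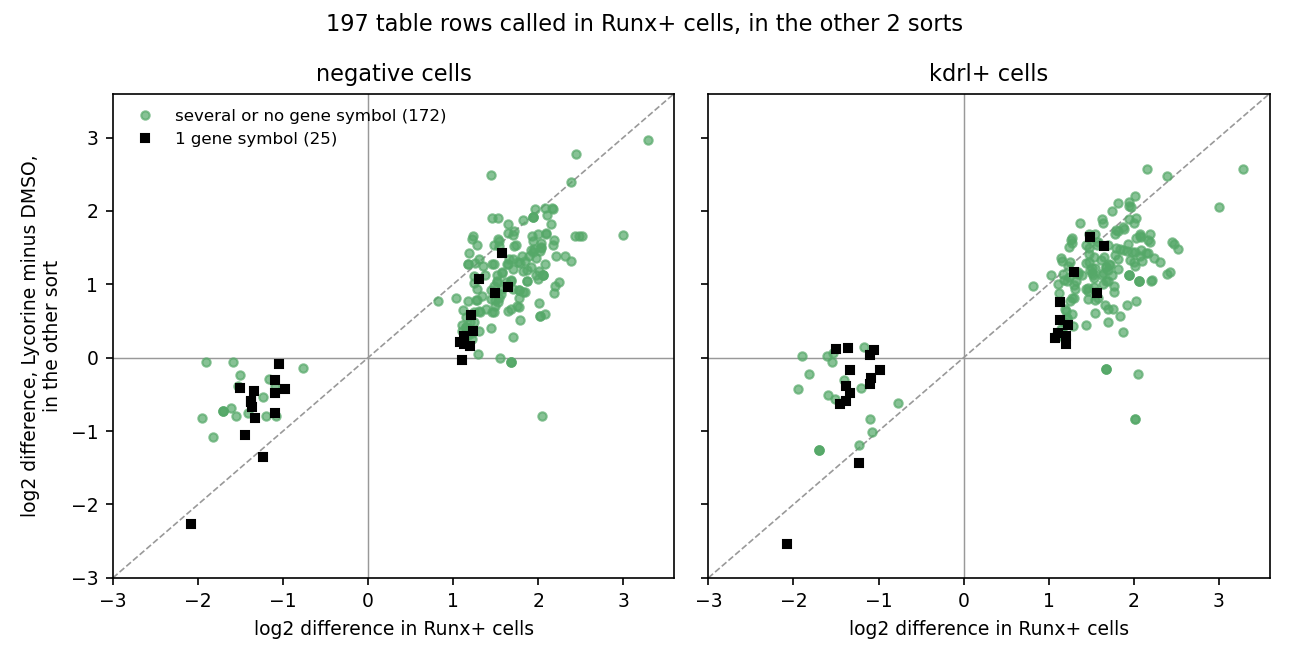
Log2 difference, Lycorine minus DMSO, of the 197 called rows in Runx+ cells (x axis) against the same difference in negative cells (left) and kdrl+ cells (right), for rows with several or no symbol (green circles) and with 1 symbol (black squares); the dashed line marks equal differences. Of the 154 higher rows without a single symbol, 149 and 148 lie above 0 in the other sorts.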

How the data were processed

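The deposited log2 values were made by the authors with oligo and RMA, and limma is named beside them, per the submitters' processing notes; versions are not given in the sources used here. Of 65528 rows, 20806 carried 1 gene symbol. Names were updated through a RefSeq gene table (assembly GRCz12tu, no coordinates used), and the row with the highest mean over the 18 arrays was kept for each of the 1372 genes with several rows, leaving 19247 genes. Depth has no meaning here, and 3 arrays per group limit the precision.

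The gene test was limma 3.58.1 under R 4.3.3 (6 group means, 18 arrays, moderated, 2-sided; 17.4 degrees of freedom), adjusted by Benjamini-Hochberg over all genes at 0.05. The script was tested on simulated data. Summaries used pandas 2.3.3 and plots matplotlib 3.10.9, both under Python 3.11.15. The members, lists and tests were chosen with earlier results of these data known. Named were the 12 largest changes per direction among called genes (none qualified), the 4 smallest p of each list, fixed genes, and the 5 smallest p per direction of each difference of effects. A single one of the lists, which needs an item not reported here, was left out of the text.

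The labels do not say whether replicate numbers pair the treatments, and no pairing was seen in the values. Deviations of same-numbered DMSO and Lycorine Runx+ arrays correlated at -0.01, -0.01 and -0.09. Differently numbered ones correlated at -0.12 to 0.15. With 3 arrays per group this cannot show that no pairing existed. The closing section gives the alternatives, which were array weights, blocks, 2 other scalings, a filter on dim genes, the mean of all rows of a gene, a variance trend, the 6 arrays alone, and each array left out.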

Additional observations from a re-analysis of the deposited data

Results flagged for a closer look

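Rows outside the gene test carried signal. When all rows of the table were tested together, 172 rows with several or no gene symbol differed between Lycorine and DMSO in Runx+ cells past the threshold, as did 25 rows with 1 symbol. Of the 172, 154 were higher by 0.82 to 3.29 and 18 lower by -0.77 to -1.95. All 172 were without overlap between the groups, which is close to given for rows picked by p on the same arrays. All 172 were also called without DMSO Runx+ replicate 1. In that setting calls rose in general, to 1069 rows with several or no symbol. Most calls were lost without DMSO Runx+ replicate 2, which left 5 such rows. The same held for Lycorine Runx+ replicates 1, 2 and 3, without which 15, 3 and 2 were called. Without DMSO Runx+ replicate 3 the count was 150. What the 172 rows target was not determined here.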

How the results depend on the processing

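The count of called genes for Lycorine against DMSO in Runx+ cells, 0 over all 6 arrays, was 952 with array weights, 20 with cyclic loess, 3 with median centring, 2 with the mean of all rows of a gene, 2 with the pool as a random block, and 197 rows when all rows were tested together. With a filter on dim genes, a variance trend with robust fitting, the 6 Runx+ arrays alone, or without the DMSO arrays numbered 2 (added after seeing the data) it was 0. Leaving out 1 array gave 0 to 1107. With the replicate number as a block it was 1, where it is not known whether the numbers pair the treatments (above). The block called nothing in the differences of effects. In the gene test those differences had 0 calls under each alternative run, with 202 to 1363 genes (Runx+ minus negative) and 517 to 2227 (Runx+ minus kdrl+) at an unadjusted p under 0.05. With all rows tested together they had 0 calls, except 1 row for Runx+ minus kdrl+ without DMSO Runx+ replicate 1, and 1911 and 3006 rows over all arrays were at an unadjusted p under 0.05. Over 106 named genes, 9 of 2009 differences changed sign. Most of these genes were chosen by a small p on the same arrays, so their signs were largely fixed by the choice. For myb the difference became 0.38 with array weights, 0.15 without Lycorine replicate 3, 0.13 without DMSO replicate 1 and 0.16 without DMSO replicate 3. Over single arrays left out it ranged from -0.53 to 0.16. For cxcr4b it became 0.14, 0.10 and 0.32 with array weights, without Lycorine replicate 3 and without DMSO replicate 3. Its range over single arrays left out began at -0.38. For mdm2 it was -0.02 without Lycorine replicate 2, and for gch2 0.30 without DMSO replicate 1, where other single arrays left out gave values down to -3.4. The causes were not tested. Medians that changed sign in at least 5 alternatives were those of the endothelial and of the neural crest and pigment lists. Values near background have compressed differences on arrays.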
